A study of Mus musculus with 6 samples.

Results

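The actin, myosin and tropomyosin genes of the contractile cytoskeleton were compared between podoplanin-positive cancer-associated fibroblasts (pCAFs) with and without the surface protein Ly6C. The genes were a list of 41 symbols plus all unconventional myosin genes, whose symbols start with Myo followed by a number. Of the 41 listed symbols 38 had a row in the deposited table, Mkl1 had one under its current symbol Mrtfa, and Lmod1 and Synpo2 had none and were not analysed here. With 15 Myo genes this gave 54 genes of the 12235 in the table. By the isoforms they encode, 12 of them were classed as smooth-muscle, 3 as striated-muscle and 17 as non-muscle genes, and the others were left unclassed.

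The cells came from tumours of 4T1, a BALB/c mammary carcinoma line. A dose of 100000 cells was placed in the fat pad of the mammary gland in BALB/c females aged 8 weeks, and the labels name the injected line as 4T1-GFP in one field and as 4T1-luc in another. After digestion of the tumours the sort kept cells negative for Ter119, CD45 and EpCAM and positive for PDPN, and parted them into a LY6C+ and a LY6C- fraction. Each fraction gave 3 libraries of 3′ end mRNA, and nothing in the labels says whether these came from separate animals or pools, so the p-values measure only the spread between these libraries.

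In muscle and in activated fibroblasts, force comes from myosin II filaments that pull on actin filaments. Every cell has non-muscle isoforms of both, while smooth muscle adds its own actins, myosin heavy chain, calponin and transgelin. A fibroblast that takes up alpha-smooth-muscle actin is called a myofibroblast, a state well known in wounds and in tumour stroma. Serum response factor (SRF) with its actin-sensing partners, the MRTF proteins, switches on many of these genes through a DNA element known as the CArG box.

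Values are normalised counts, the reads of a gene divided by 1 size factor per library. They are given in the order of replicates 1, 2 and 3, or as mean ± SD of a group's 3 libraries. A fold divides one group mean by the other. Log2 fold changes are Ly6C+ minus Ly6C- on log2(value + 1), a scale on which low genes appear to change less than they do, and come with a standard error (SE) and a limma p adjusted over all 9646 genes tested. The Ly6C+ libraries held 2150531 to 2818269 reads and the Ly6C- libraries 1176909 to 1721480, so depth moved with the groups. Thinned to 1176909 reads in every library, 31 of the contractile genes passed the test, the same number as at full depth. As these were bulk samples, fewer cells of a type and less RNA per cell cannot be told apart.

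Fibroblast collagen genes were abundant in both fractions, and some but not all of the other fibroblast markers were higher in Ly6C+. Col1a2 stood at 20837 to 26409 in Ly6C+ and 20568 to 28394 in Ly6C- libraries. Thy1 (mean 2786 in Ly6C+ and 3418 in Ly6C-) and Fap (55.7 and 57.0) did not pass the test, nor did Col1a1 and Col1a2. Of 8 fibroblast markers 4 were higher in Ly6C+ and none was lower, against 9.41% and 7.66% of all genes tested. The 4 higher markers are given next. They were Dcn (3.99-fold), Lum (5.24-fold, not past the test without Ly6C+ replicate 1), Pdgfra (2.38-fold) and Pdpn, the gene of the sorted surface protein (2.19-fold; limma adjusted p = 0.00915).

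Markers of other cell types moved with the groups in both directions, and their part in the results was not tested. The 11 markers of pericytes and smooth muscle that are not among the 54 genes summed to 645 to 764 in Ly6C+ and 1446 to 2442 in Ly6C- libraries. Of the 8 that could be tested, Cspg4, Mcam, Notch3, Pdgfrb and Des were lower in Ly6C+. Mcam had 5 reads in Ly6C+ and 36 in Ly6C-, so it reached the filter only through Ly6C- and had to differ. Kcnj8 was higher in Ly6C+, at 115, 102 and 136 against 30.5, 40.0 and 19.7. Higd1b was at 0 in every library and Rgs5 at or below 5.24. The 12 skeletal muscle markers with a row summed to 46.4 to 68.4 and to 115 to 775, of which Des, the gene of desmin, made up 684, 322 and 76.0 in the Ly6C- libraries. Some others of low level had more reads in Ly6C- than in Ly6C+. These were Tnnc2 (20 against 2), Atp2a1 (20 against 3), Mb (23 against 4), Myl1 (15 against 1) and Ckm (6 against 0). Actn3 had 14 reads in Ly6C+ and 13 in Ly6C-, and Pvalb had 2 in Ly6C+ and 0 in Ly6C-. Myh4 had 1 read in all, and Tnnt3, Tnni2 and Tnnt1 did not pass the test. Tnnt3 was 1.57-fold higher in Ly6C+ without overlap, while Tnni2 and Tnnt1 had the higher mean in Ly6C-. Epithelial and myoepithelial markers, keratins in the main, summed to 7.93 to 41.0 in Ly6C+ and 74.7 to 303 in Ly6C- libraries. Krt18 reached 183 and Krt14 40.8 in Ly6C- libraries. In reads, Krt14 had 3 in Ly6C+ and 94 in Ly6C-, Krt5 had 0 and 30, and Krt17 had 0 and 16. Epcam, which the sort gated out, stood at or below 2.95. Cdh1 had 2 reads in Ly6C+ and 3 in Ly6C-, and Oxtr had 4 and 5. Endothelial markers summed to 6.01 to 11.6 in Ly6C+ and 13.1 to 102 in Ly6C- libraries. Most of the Ly6C- sum was Kdr, at 88.6, 94.4 and 10.5. Its call (limma adjusted p = 0.0225) was lost without any library except Ly6C- replicate 3. Pecam1 had 10 reads in each group, and Cldn5 had 0 in Ly6C+ and 13 in Ly6C-. The sum of immune markers went the other way, at 167 to 447 in Ly6C+ and 27.5 to 64.0 in Ly6C- libraries. Lyz2 there stood at 264, 98.5 and 27.0 and Cd3e at 165, 88.7 and 121 in the Ly6C+ libraries. Cd68 overlapped (mean 17.9 in Ly6C+ and 14.9 in Ly6C-) and did not pass, while Ptprc, the gene of CD45, stood at or below 4.88.

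The contractile genes were mostly lower in Ly6C+ than in Ly6C- pCAFs. A mean value of at least 5 was reached by 49 of the 54, of which 30 were lower and 1 was higher in Ly6C+ at an adjusted p under 0.05, while 18 did not pass. Of all genes tested 17.1% passed, 7.66% lower and 9.41% higher in Ly6C+. The median log2 fold change was -1.06 over the 49 genes and 0.00 over all genes tested. For 36 of the 49 the ranges of both groups were apart, 33 of them with the lower range in Ly6C+, against 33.1% and 16.1% of all genes tested. Acta1, Actg2, Myh11, Mylpf, Cnn1 and Pdlim3 reached the filter only through their Ly6C- values and had to differ. Among the 43 genes with a mean of at least 5 in both groups, 24 were lower and 1 was higher, with a median of -0.94, against 582 lower and 778 higher of the 8956 such genes in all and a median of 0.00. When each library was scaled to its own total, the median of all genes moved to -0.19 and that of the contractile genes to -1.26, and the genes past the test numbered 725 higher and 1211 lower in all, against 908 and 739 with the authors' size factors.

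The median difference was larger among smooth-muscle than among non-muscle genes. Of the 12 smooth-muscle genes 10 were lower in Ly6C+, none was higher and 2 (Cald1 and Csrp2) did not pass, with a median log2 fold change of -3.58. Without Actg2, Myh11 and Cnn1, which reached the filter only through Ly6C-, 7 of 9 were lower and the median was -2.41. Of the 17 non-muscle genes 11 were lower, 1 (Myl12b) was higher and 5 did not pass, with a median of -1.03. The striated-muscle genes Acta1 and Mylpf were lower and Flnc did not pass. No test was made of the difference between these medians. The paralog ratios given further on compare single pairs, and those of Actg2, Myh11 and Cnn1 carry the same limit of the filter.

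**Figure D1:**
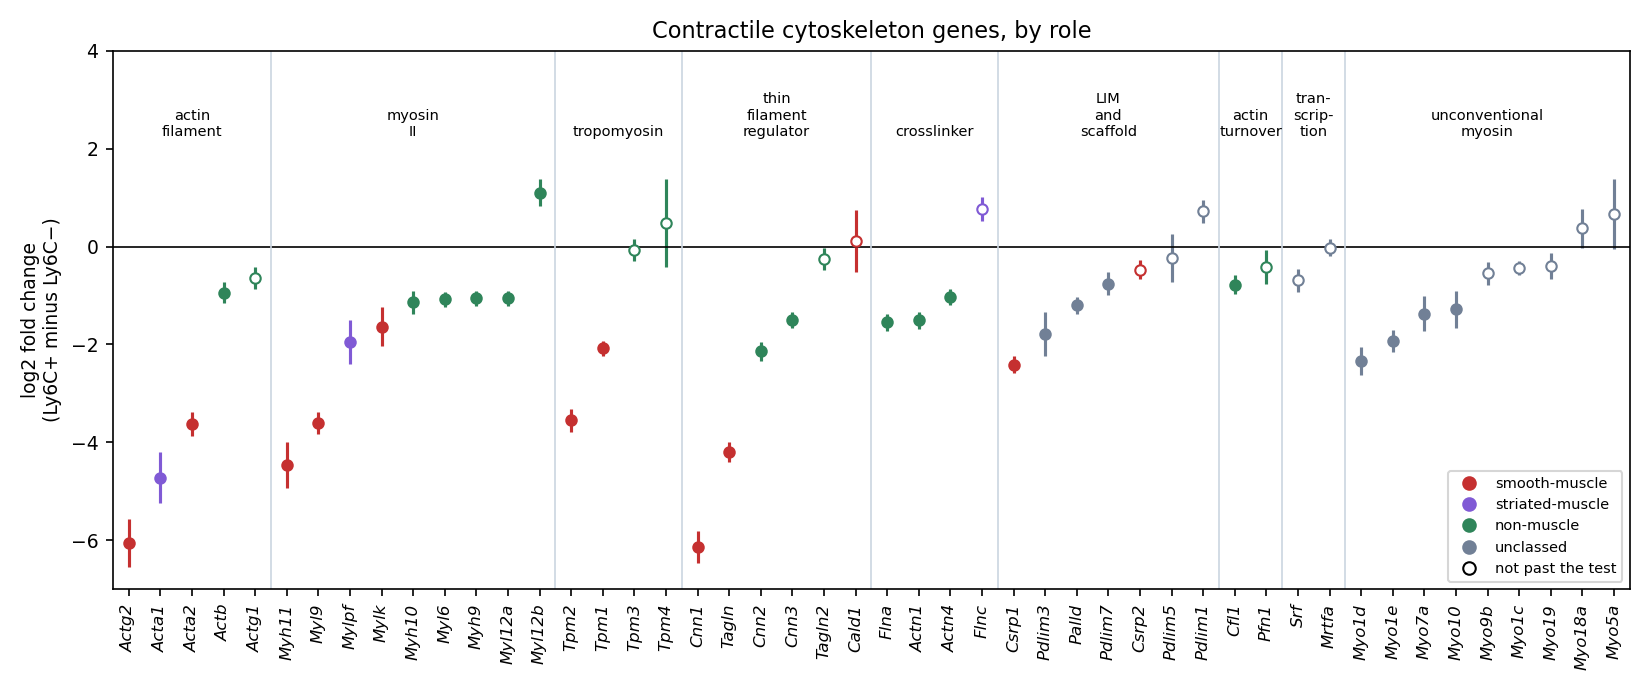
Log2 fold change (Ly6C+ minus Ly6C-, limma on log2(value + 1)) of 48 of the 49 tested genes on the vertical axis, ordered by role and coloured by isoform class, with bars of 1 SE and open symbols for genes that did not pass. Smooth-muscle genes reach -6.14 (Cnn1), while most non-muscle genes lie between -2.14 and 0, and Myl12b at 1.10 is the filled symbol above 0.

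Actin genes encode the filaments on which myosin pulls. Acta2, the gene of alpha-smooth-muscle actin and the usual marker of myofibroblasts (chromosome 19, 34241090 to 34255590, minus strand, mm10), stood at 6.71, 7.52 and 7.73 over the Ly6C+ and at 81.7, 101 and 127 over the Ly6C- libraries. Even the lowest Ly6C- library was far above all 3 Ly6C+ libraries. The fold was 14.1 in favour of Ly6C- (log2 fold change -3.63, SE 0.25; limma adjusted p = 4.06e-06). Actg2, the smooth-muscle gamma-actin of gut and bladder (chromosome 6, 83512905 to 83536265, minus strand), stood at 5.49, 8.27 and 0.773 against 338, 344 and 271. Its fold of 65.6 became 101 without Ly6C+ replicate 2. Acta1, the actin of skeletal muscle (chromosome 8, 123891769 to 123894751, minus strand), was read 3 times in all Ly6C+ libraries together and 141 times in Ly6C- libraries, where its values were 73.8, 41.7 and 22.3. The ratio of read rates was 67.8 with an exact 95% counting interval of 22.7 to 333, and 140 (interval 24.7 to 5569) without Ly6C+ replicate 2. The annotation lists Gm20388 over the 3′ end of Acta1 as well, so its reads are uncertain to that extent. Acta1, Des, Tnnc2, Tnnt1 and Mb were all highest in Ly6C- replicate 1 and lowest in Ly6C- replicate 3. Ckm, on 6 Ly6C- reads, and the keratin genes Krt8 and Krt18 had the same order, and some other skeletal muscle genes did not. Mylpf, Tnni2, Atp2a1 and Actn3 were highest in Ly6C- replicate 2 and, like the genes above, lowest in Ly6C- replicate 3. Myl1 was lowest in Ly6C- replicate 2, and Tnnt3 was highest in Ly6C- replicate 3. The part of muscle cells in these orders was not tested.

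The cytoplasmic actins, which every cell uses for shape and movement, differed less. Actb stood at 7226, 4397 and 5952 over the Ly6C+ and at 11237, 10689 and 11015 over the Ly6C- libraries, without overlap, and was 1.87-fold higher in Ly6C- (log2 fold change -0.94, SE 0.21; limma adjusted p = 0.00912). The Ly6C+ libraries spread more (SD 1417) than the Ly6C- libraries (SD 275). Actg1 did not pass, with 28.1, 33.8 and 35.5 against 59.1, 45.9 and 48.5 (adjusted p = 0.0753), although its groups did not overlap either, and it passed under scaling to library totals (adjusted p = 0.0255). Actin genes and their processed copies are close in sequence, and how reads with several matches were handled was not given, so the value of each is uncertain to that extent.

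Of all reads on the 5 actin genes, the muscle actins Acta1, Acta2 and Actg2 took 0.176%, 0.389% and 0.142% in the Ly6C+ libraries and 4.18%, 4.34% and 3.66% in the Ly6C- libraries. The means were 0.236% ± 0.134 and 4.06% ± 0.352 (SD, n = 3), a 17.2-fold difference without overlap. An exact two-sided permutation test over the 6 libraries gave p = 0.1, the smallest p that 3 against 3 libraries allow. Acta1 and Actg2 reached the filter only through Ly6C-. This share does not depend on how a library is scaled. Even in Ly6C- pCAFs nearly all actin reads lay on the cytoplasmic genes.

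**Figure D2:**
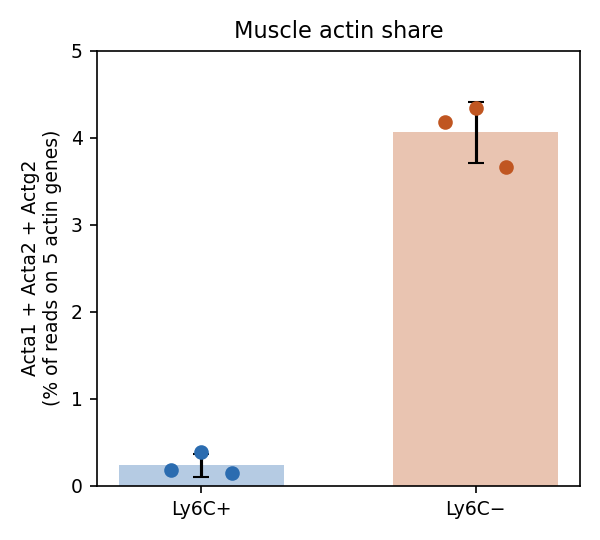
Share of reads on the 5 actin genes that fell on Acta1, Acta2 and Actg2, in percent, with bars for the mean of 3 libraries, error bars of 1 SD and a point per library. All Ly6C- libraries lie at 3.66% or above and all Ly6C+ libraries at 0.389% or below.

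Myosin II is built of heavy chains, which hold the motor, and of regulatory and essential light chains. All 9 genes of this role passed the test, 8 of them lower in Ly6C+, against 17.1% past and 7.66% lower of all genes tested. Myh11 and Mylpf are among the 8 but reached the filter only through their Ly6C- values, so they had to differ. Myh11, the smooth-muscle heavy chain (chromosome 16, 14194535 to 14291372, minus strand), had 1 read in the Ly6C+ libraries together and values of 20.7, 28.9 and 26.2 in the Ly6C- libraries. The ratio of read rates was 108 (exact 95% counting interval 18.8 to 4332), and without Ly6C+ replicate 1, the library with that read, it was at least 22.2-fold higher in Ly6C-, with the group's floor set at 3 reads. Myl9, the regulatory light chain of smooth muscle and myofibroblasts (chromosome 2, 156775420 to 156781658, plus strand), stood at 71.4, 107 and 56.4 against 1032, 1000.4 and 789, 12.0-fold higher in Ly6C- (log2 fold change -3.61, SE 0.23; adjusted p = 2.23e-06). Mylk, the kinase that activates myosin by phosphorylating that light chain, was low, at 3.05, 9.77 and 6.95 against 23.6, 19.6 and 19.7 (limma adjusted p = 0.0157). It no longer passed once Ly6C+ replicate 1 (adjusted p = 0.0512) or Ly6C- replicate 2 (0.0539) was dropped. Mylpf, the light chain of fast skeletal muscle, stood at 2.44, 3.01 and 1.55 against 13.8, 14.5 and 7.87, and its call (adjusted p = 0.0121) ended without Ly6C- replicate 2 (0.0703).

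The non-muscle heavy chain genes were both lower in Ly6C+. Myh9, the gene of myosin IIA, stood at 847, 878 and 885 over the Ly6C+ and at 1657, 1926 and 1859 over the Ly6C- libraries (2.08-fold; adjusted p = 0.000532), and Myh10, that of myosin IIB, at 30.5, 27.1 and 28.6 against 50.2, 67.2 and 78.7 (2.28-fold; adjusted p = 0.00569). The essential light chain gene Myl6 was 2.12-fold higher in Ly6C- (305 ± 14.8 and 645 ± 61.1).

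The regulatory light chain genes Myl12a and Myl12b went opposite ways. Myl12a stood at 1184, 1398 and 1316 over the Ly6C+ and at 2385, 2833 and 2951 over the Ly6C- libraries (log2 fold change -1.06, SE 0.16; adjusted p = 0.000871). Myl12b stood at 267, 303 and 225 against 175, 131 and 78.7, 2.07-fold higher in Ly6C+ (log2 fold change 1.10, SE 0.27; adjusted p = 0.0144), the only one of the 49 tested genes that was higher in Ly6C+ past the test. It lost the call when Ly6C+ replicate 1 (adjusted p = 0.0605) or 2 (0.0640) was dropped. These genes are near-identical neighbours whose annotations overlap on chromosome 17, so reads may be divided between them uncertainly. Their sum was 1564 ± 126 over the Ly6C+ and 2851 ± 254 over the Ly6C- libraries, a 1.82-fold difference.

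**Figure D3:**
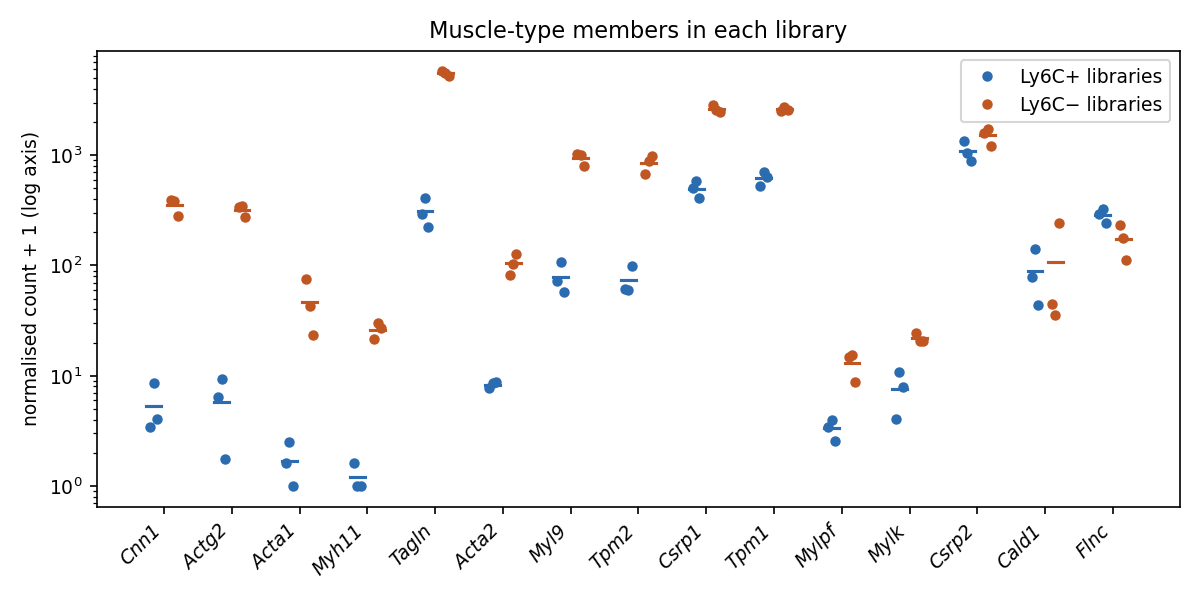
Normalised count + 1 on a log axis for the 12 smooth-muscle and 3 striated-muscle genes, with a point per library and a line at the group mean, ordered by log2 fold change. The groups stay apart from Cnn1 to Mylk, overlap for Csrp2 and Cald1, and Flnc at the right is the gene with Ly6C+ above Ly6C-.

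Tropomyosins wind along the actin filament and set which myosins and binding proteins reach it. Tpm2, which encodes beta-tropomyosin (chromosome 4, 43514711 to 43523765, minus strand), stood at 59.8, 59.4 and 98.1 over the Ly6C+ and at 673, 887 and 979 over the Ly6C- libraries, 11.7-fold higher in Ly6C- (log2 fold change -3.55, SE 0.23; adjusted p = 2.33e-06). Tpm1, whose splice forms serve muscle and non-muscle cells, stood at 521, 704 and 638 against 2533, 2758 and 2563, a 4.21-fold difference (adjusted p = 9.23e-06). Values of a whole gene do not tell its splice forms apart. Tpm3 (226 ± 61.8 and 235 ± 54.7; log2 fold change -0.07, SE 0.23) and Tpm4 did not pass. Tpm4 differed more within the Ly6C- group than between groups, at 19.7, 285 and 494 there against 184, 311 and 138 in Ly6C+ libraries (log2 fold change 0.48, SE 0.90; adjusted p = 0.784). Without Ly6C- replicate 1 its log2 fold change was -0.91 (adjusted p = 0.0744), without Ly6C- replicate 3 it was 1.38 (0.284), and edgeR on recovered reads gave -0.31.

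Among the proteins that sit on the thin filament, Cnn1 had the largest log2 fold change of all 49 genes on the log2(value + 1) scale, although the ratio of Myh11 given above was larger. Cnn1, the calponin of smooth muscle (chromosome 9, 22099216 to 22109630, plus strand), stood at 2.44, 7.52 and 3.09 over the Ly6C+ and at 392, 379 and 279 over the Ly6C- libraries. It was 80.5-fold higher in Ly6C- (log2 fold change -6.14, SE 0.33; limma adjusted p = 8.74e-07), or 127-fold without Ly6C+ replicate 2. Tagln, the actin-bundling protein SM22 (chromosome 9, 45929619 to 45936058, minus strand), stood at 293, 410.4 and 223 against 5737, 5615 and 5255, 17.9-fold higher in Ly6C- (log2 fold change -4.20, SE 0.21; adjusted p = 5.43e-07). The gene Pcsk7 runs across the 3′ end of Tagln on the other strand, and strand handling was not given. Pcsk7 itself stood at 118, 63.1 and 81.9 against 87.6, 109 and 114, far below the Tagln values of Ly6C- libraries.

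The broadly expressed calponins also differed, Cnn2 by 4.33-fold (583, 782 and 489 against 2569.7, 3005 and 2461; adjusted p = 2.51e-05) and Cnn3 by 2.83-fold (479 ± 45.1 and 1353 ± 117; adjusted p = 6.22e-05), both higher in Ly6C-. Tagln2, the non-muscle relative of Tagln, did not pass, at 3408, 2275 and 2197 against 3891, 2834 and 2623 (log2 fold change -0.25, SE 0.22; adjusted p = 0.508), except after quantile normalization (log2 fold change -0.69; adjusted p = 0.0362). Cald1, which encodes caldesmon, an inhibitor of the actin-myosin interaction, was classed with smooth muscle but did not pass. Its Ly6C- values of 43.3, 34.9 and 243 enclosed the Ly6C+ values of 78.1, 141 and 43.3 (log2 fold change 0.12, SE 0.63; adjusted p = 0.934). Without Ly6C- replicate 3 the log2 fold change was 0.99 (adjusted p = 0.114), under scaling to library totals -0.07, and in edgeR -0.23.

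Each muscle-type gene was set against a non-muscle relative in the same library, for 8 pairs. Ratios were taken after adding 1 to each value, which weighs on genes near 0 such as Myh11, and apart from that a ratio within a library does not depend on its scaling. A difference in this log2 ratio says that the muscle-type gene changed by another factor than its relative. For 7 pairs the ratio was higher in all Ly6C- than in all Ly6C+ libraries. Among these, Actg2, Cnn1 and Myh11 had Ly6C+ means of 4.84, 4.35 and 0.203. They reached the filter only through Ly6C-, so their pairs had to differ. The log2 ratio of Actg2 to Actg1 was -2.16, -1.91 and -4.37 for Ly6C+ but 2.50, 2.88 and 2.46 for Ly6C-, a difference of 5.42. That of Cnn1 to Cnn2 was -6.94 ± 0.44 and -2.94 ± 0.21, a difference of 4.00, and that of Tagln to Tagln2 -3.10 ± 0.56 and 0.85 ± 0.25, a difference of 3.95. Myh11 to Myh9 differed by 3.42, Acta2 to Actb by 2.69 and Myl9 to Myl12a by 2.55. Tpm2 to Tpm4 differed by 4.04 with a wide spread (5.03, 1.64 and 0.99 in Ly6C- libraries), which follows the Tpm4 values above.

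The 8th pair went the other way. Flnc, the filamin of striated muscle, against Flna gave log2 ratios of -1.46, -1.45 and -1.73 for Ly6C+ but -3.24, -4.07 and -4.29 for Ly6C-, a difference of -2.32. An exact two-sided permutation test over the 6 libraries gave p = 0.1 for each of the 8 pairs (adjusted over the 8 pairs, 0.1), the smallest p that 3 against 3 libraries allow, so none can pass at 0.05.

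**Figure D4:**
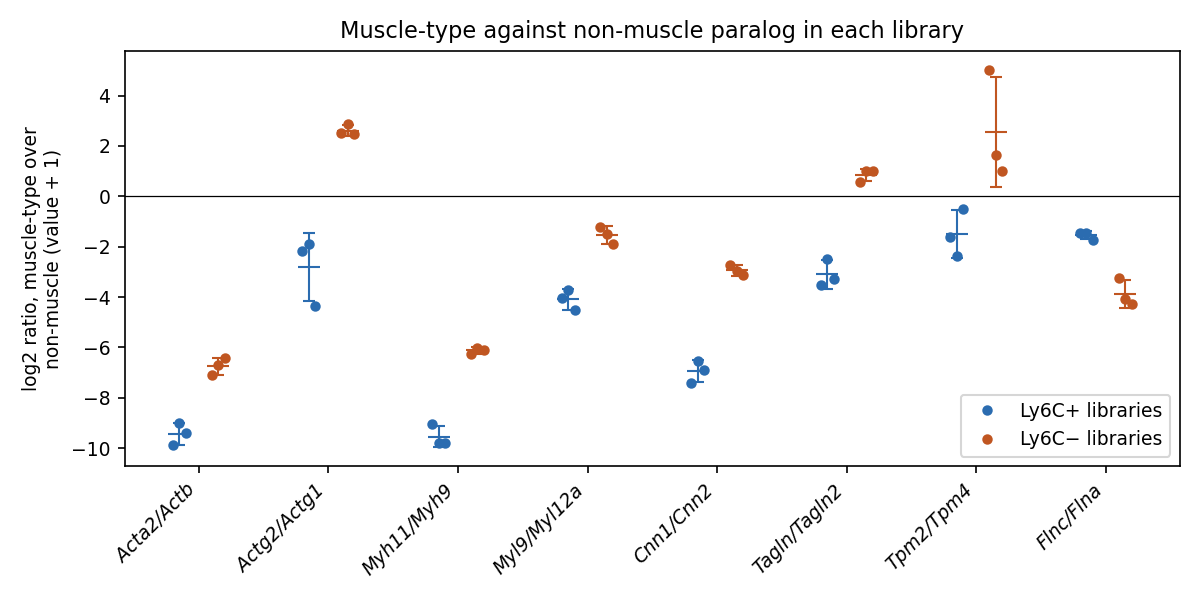
Log2 ratio of a muscle-type gene to a non-muscle relative (each value + 1) in each library, with a point per library, the mean and 1 SD. In 7 pairs the Ly6C- points lie above the Ly6C+ points, by 2.55 to 5.42 between means, and for Flnc/Flna they lie below. Actg2, Cnn1 and Myh11 reached the filter only through Ly6C-, so their pairs had to differ.

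Crosslinkers tie actin filaments into bundles and nets. Actn1 and Actn4, the non-muscle alpha-actinins, were 2.83-fold and 2.04-fold higher in Ly6C- (619 ± 103 and 1755 ± 151; 715 ± 68.1 and 1462 ± 139). Flna, filamin A, stood at 798, 888 and 802 over the Ly6C+ and at 2196, 2983 and 2172 over the Ly6C- libraries, 2.96-fold higher in the latter (adjusted p = 0.000102). Flnc stood at 290.3, 323 and 240.3 against 231, 177 and 110.1, higher in every Ly6C+ library but not past the test (log2 fold change 0.77, SE 0.25; adjusted p = 0.0619). It passed without Ly6C- replicate 1 (adjusted p = 0.0111).

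LIM-domain and scaffold proteins anchor actinin and the filament ends. Csrp1, a cysteine-rich LIM protein of smooth muscle (chromosome 1, 135720061 to 135752232, plus strand), stood at 503, 579.5 and 411 over the Ly6C+ and at 2836, 2589.5 and 2465 over the Ly6C- libraries, 5.28-fold higher in Ly6C- (adjusted p = 4.69e-06). Its relative Csrp2 overlapped between groups (1338, 1054 and 886 against 1591, 1713 and 1217; log2 fold change -0.47, SE 0.20; adjusted p = 0.146) and passed under scaling to library totals (0.0388) and after quantile normalization (0.0288). Palld, the scaffold palladin, was 2.29-fold higher in Ly6C- (276 ± 44.6 and 632 ± 51.0; adjusted p = 0.000600).

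The PDZ-LIM genes did not move as one. Pdlim3 stood at 2.44, 4.51 and 3.09 against 20.7, 15.3 and 7.87 (adjusted p = 0.0196) and Pdlim7 at 535, 345 and 274 against 574, 689 and 616 (adjusted p = 0.0439), both lower in Ly6C+. Pdlim3 no longer passed when replicate 1 (adjusted p = 0.0733) or 3 (0.0526) of Ly6C+ was dropped, or replicate 1 (0.0699) or 2 (0.0866) of Ly6C-. That of Pdlim7 ended without Ly6C+ replicates 2 or 3 (0.137 and 0.139), without Ly6C- replicates 2 or 3 (0.160 and 0.0637) and in edgeR (0.0581). Pdlim1 stood higher in every Ly6C+ library (537, 389 and 663 against 228, 348 and 388) but did not pass (log2 fold change 0.72, SE 0.24; adjusted p = 0.0690). It passed in 5 of 18 alternatives, among them without Ly6C+ replicate 2 (0.0369) or Ly6C- replicate 3 (0.0345) and in DESeq2 (0.0293). Pdlim5 overlapped, at 34.8, 69.9 and 48.7 against 21.7, 80.0 and 109.

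Of the actin turnover genes, Cfl1, the filament-severing cofilin, stood at 2342, 2052 and 1773 against 3507, 4224 and 2887 (log2 fold change -0.78, SE 0.19; adjusted p = 0.0160). Dropping Ly6C+ replicate 2 (adjusted p = 0.0518), Ly6C+ replicate 3 (0.0595) or Ly6C- replicate 2 (0.0905) ended the call. The gene Snx32 covers the 3′ end of Cfl1 on the other strand and stood at or below 6.01. Pfn1, profilin, did not pass (199 ± 89.0 and 259 ± 87.0; adjusted p = 0.484).

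The transcription regulators did not pass the test as fitted, with means 1.66-fold higher in Ly6C- for Srf and 1.01-fold for Mrtfa. Srf stood at 59.8, 62.4 and 50.2 over the Ly6C+ and at 117, 103 and 66.9 over the Ly6C- libraries, without overlap, and did not pass (log2 fold change -0.69, SE 0.24; adjusted p = 0.0718), but it passed without Ly6C- replicate 3 (0.0106) and under scaling to library totals (0.0268). Mrtfa, listed as Mkl1, stood at 118, 129 and 107 against 113, 128 and 117 (log2 fold change -0.02, SE 0.17; adjusted p = 0.965). The gene Sgsm3 covers the 3′ end of Mrtfa on the other strand, so the reads of Mrtfa are uncertain to that extent. RNA levels do not measure where these proteins sit in the cell, which is how MRTF activity is known to be set.

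CArG boxes were looked for in promoter windows of 300 bases, 250 before to 50 after the transcript start, on both strands, as RefSeq on GRCm38.p6 gives them. Windows were found for 47 of the 54 genes, 61 windows in all, and Acta1, Actg1, Cnn2, Myl6, Myl9, Myo1e and Srf held a full match. That is 11.5% of the 61 windows, against 1.63% of 32851 windows of all genes, given as a description with no test. Among the genes with no window were Actg2, Actb, Myh11, Tagln, Csrp2 and Myo1d. Of the 7 genes with a match, Acta1, Cnn2, Myl6, Myl9 and Myo1e were lower in Ly6C+ past the test. Among all 49 tested contractile genes 30 were lower. A full match was held by 1 of 8 smooth-muscle genes with a window and by 3 of 16 non-muscle genes. Near matches were not counted in any class, so Acta2, whose window holds ccctatatgg, was counted as having none. The core of the MCAT element, CATTCC, which TEAD factors bind, was in 29.5% of the 61 windows and in 14.7% of all windows, counting both strands and overlapping matches, and Acta1 was the gene that held both motifs. The windows of 5 genes are shown because they pair muscle-type promoters (Acta1 at chr8:123894726-123895025, minus strand, and Myl9 at chr2:156775214-156775513, plus strand) with non-muscle ones (Actg1 at chr11:120348446-120348745, minus strand, and Cnn2 at chr10:79988350-79988649, plus strand) and with the promoter of Srf itself (chr17:46556113-46556412, minus strand). Capitals mark the CArG box, which starts 73, 161, 90 and 56 bases before the transcript start in the first 4 windows. Srf has a pair of boxes, 82 and 62 bases before its start. They are written 5′ to 3′ on the strand of the gene.
Acta1: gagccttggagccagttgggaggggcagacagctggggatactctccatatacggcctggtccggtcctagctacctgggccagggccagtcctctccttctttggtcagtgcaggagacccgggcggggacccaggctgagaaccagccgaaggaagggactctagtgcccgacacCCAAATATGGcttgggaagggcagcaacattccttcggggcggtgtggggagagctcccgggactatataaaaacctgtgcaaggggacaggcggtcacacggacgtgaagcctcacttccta
Myl9: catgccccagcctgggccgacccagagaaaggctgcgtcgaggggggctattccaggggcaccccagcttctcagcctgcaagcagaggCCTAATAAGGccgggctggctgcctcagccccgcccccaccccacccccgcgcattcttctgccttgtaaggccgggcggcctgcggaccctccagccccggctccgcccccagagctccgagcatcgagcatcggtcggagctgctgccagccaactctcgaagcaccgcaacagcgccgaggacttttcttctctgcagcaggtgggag
Actg1: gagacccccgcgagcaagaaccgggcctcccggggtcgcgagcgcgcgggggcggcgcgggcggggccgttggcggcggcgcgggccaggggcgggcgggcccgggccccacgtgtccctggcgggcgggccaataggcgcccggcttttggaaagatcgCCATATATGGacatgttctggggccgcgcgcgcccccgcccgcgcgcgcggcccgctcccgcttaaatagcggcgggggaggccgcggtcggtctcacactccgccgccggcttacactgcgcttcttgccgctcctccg
Cnn2: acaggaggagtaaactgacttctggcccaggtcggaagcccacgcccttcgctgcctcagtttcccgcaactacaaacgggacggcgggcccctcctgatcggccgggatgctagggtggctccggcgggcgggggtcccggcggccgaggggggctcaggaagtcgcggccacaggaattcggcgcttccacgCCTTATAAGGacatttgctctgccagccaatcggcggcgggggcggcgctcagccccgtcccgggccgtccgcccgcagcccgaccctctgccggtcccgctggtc
Srf: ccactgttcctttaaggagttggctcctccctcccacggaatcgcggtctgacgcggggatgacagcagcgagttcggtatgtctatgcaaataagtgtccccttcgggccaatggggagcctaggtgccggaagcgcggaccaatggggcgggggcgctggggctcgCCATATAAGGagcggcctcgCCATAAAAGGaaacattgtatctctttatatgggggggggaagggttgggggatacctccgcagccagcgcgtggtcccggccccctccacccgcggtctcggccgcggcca
A match is a stretch of letters and not a measured binding site. The genes that carry one differed by unlike amounts, from the ratio of 67.8 of Acta1 to the 1.58-fold difference of Actg1, which did not pass.

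Unconventional myosins carry cargo, tether membranes to actin or build protrusions, and do not form the contractile filaments. A mean of at least 5 was reached by 10 of the 15 Myo genes, 4 of which were lower in Ly6C+, none higher, and 6 did not pass. The shares over all genes tested were 7.66% lower and 9.41% higher. Myo1d, a membrane-binding class I myosin (chromosome 11, 80482126 to 80780025, minus strand), stood at 17.7, 37.6 and 30.1 over the Ly6C+ and at 121, 124 and 189 over the Ly6C- libraries, 5.08-fold higher in Ly6C- (log2 fold change -2.34, SE 0.29; adjusted p = 0.000220). Myo1e, of the same class (chromosome 9, 70207350 to 70399766, plus strand), stood at 45.1, 62.4 and 37.1 against 171, 219 and 159.9, 3.81-fold higher (adjusted p = 0.000159). Both were without overlap by a wide margin and passed under all 18 alternatives to the fit.

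Myo10, the myosin of filopodia tips, and Myo7a were lower in Ly6C+ with less certainty. Myo10 stood at 9.15, 21.8 and 17.0 against 23.6, 43.4 and 53.8 (adjusted p = 0.0395), and dropping replicate 1 (0.155) or 3 (0.0729) of Ly6C+, or replicate 2 (0.141) or 3 (0.103) of Ly6C-, ended the call. Myo7a stood at 22.6, 55.6 and 57.2 against 74.8, 117 and 151 (adjusted p = 0.0228), and lost its call without Ly6C+ replicate 1 (0.0732) or Ly6C- replicates 2 or 3 (0.0853 and 0.0594). Myo1c, the most abundant in counts, was lower in every Ly6C+ library (589.8, 639.7 and 635 against 748, 870.3 and 926) without passing (log2 fold change -0.44, SE 0.15; adjusted p = 0.0772), and it passed under scaling to library totals (0.0121) and after quantile normalization (0.0227). Myo9b (153 ± 38.1 and 225 ± 59.4) passed in the former setting (adjusted p = 0.0418) but not as fitted (0.147).

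Myo18a, Myo19 and Myo5a did not pass, with log2 fold changes between -0.40 and 0.66. Myo5a stood at 0.984, 11.9 and 17.0 in the Ly6C- libraries, 1 read in the first of them. Below the filter, Myo1f and Myo1g each had 17 reads in Ly6C+ and 2 in Ly6C- libraries (ratio 5.89, exact 95% counting interval 1.40 to 52.6), on values of 6.10 or less and 6.77 or less. Myo6 had 14 and 4 reads, and Myo5c and Myo9a had 2 and 3 reads in Ly6C+ and none in Ly6C- libraries.

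The spread between replicates differed among the genes. Over the 42 contractile genes with a mean of at least 20, the median coefficient of variation was 24.2% in Ly6C+ and 17.4% in Ly6C- libraries. Against that, Tpm4, Cald1 and Pdlim5 were uneven in the Ly6C- group, where the highest value was 25.1, 6.95 and 5.03 times the lowest. Ly6C- replicate 1 was the lowest library of Tpm4, Pdlim5 and Myo5a, and Ly6C- replicate 3 the highest of all 4.

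**Figure D5:**
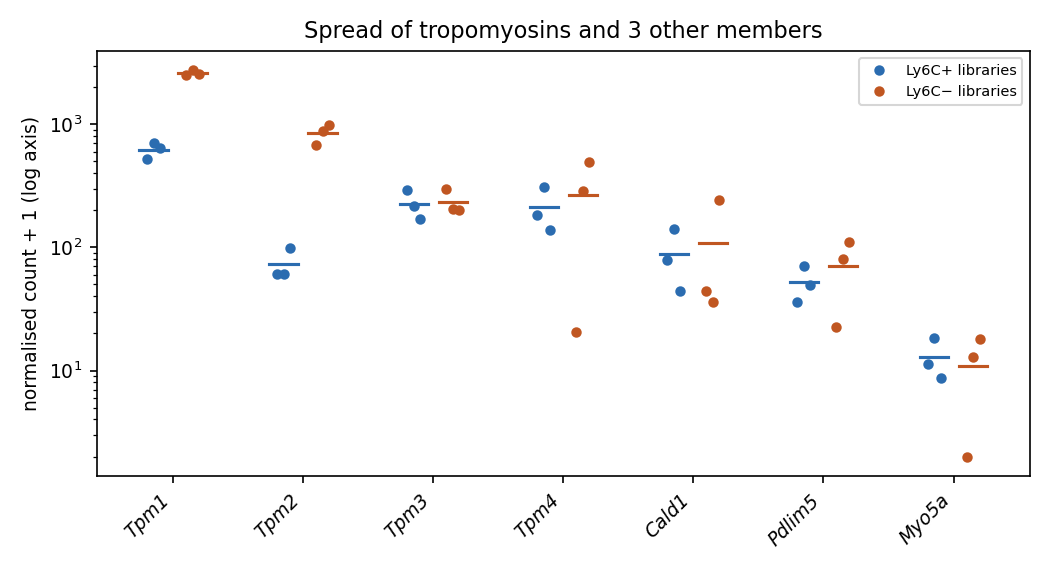
Normalised count + 1 on a log axis for the 4 tropomyosin genes and Cald1, Pdlim5 and Myo5a, with a point per library and a line at the group mean. Tpm1 and Tpm2 are parted cleanly by group, whereas the Ly6C- points of Tpm4 run from 19.7 to 494.

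Other genes that build or take apart actin filaments moved both ways. Of 25 genes of actin assembly and turnover, 23 could be tested, 2 of which were higher and 6 lower in Ly6C+ (median log2 fold change -0.36). Over all genes tested 9.41% were higher and 7.66% lower. Gsn, gelsolin, which severs and caps filaments, stood at 4813, 2980.4 and 3335 over the Ly6C+ and at 667, 602 and 667 over the Ly6C- libraries, 5.75-fold higher in Ly6C+ (log2 fold change 2.49, SE 0.19; adjusted p = 8.73e-06). Actr3, a subunit of the branch-forming Arp2/3 complex, stood at 178, 181 and 209 against 358, 404 and 429, 2.10-fold higher in Ly6C- (adjusted p = 0.000837). Tmsb4x, the actin-sequestering thymosin, was 2.13-fold higher in Ly6C- (1811 ± 296 and 3858 ± 1338; adjusted p = 0.0146), but not without Ly6C+ replicate 1 (0.0799) or Ly6C- replicate 2 (0.0628). Tmod3, which caps pointed ends, was 1.63-fold higher in Ly6C+ and Evl 1.64-fold higher in Ly6C-. The call of Tmod3 was lost when replicate 2 or 3 of either group was dropped (adjusted p = 0.0507 to 0.112), and that of Evl without any library except Ly6C- replicate 3 (0.0604 to 0.160). Dstn, Cap1 and Arpc2, the other genes lower in Ly6C+, passed narrowly (adjusted p = 0.0364, 0.0435 and 0.0464) and lost their calls without any of 4 or more single libraries.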

How the data were processed

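The deposited table holds 1 signal value per gene and library, the authors' normalised counts, with gene symbols. Per the submitters' processing notes, bcl2fastq, STAR 2.4.2a and HTSeq were used with mm10. The tool behind the size factors, the annotation, and the handling of strand and of molecular identifiers are not given in the sources used here. Within each library 100% of the deposited values were whole multiples of 1 step, within 0.001 of a read, so reads were recovered by division.

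The 54 genes and the gene lists were chosen with earlier results of these data known. Groups were compared with limma 3.58.1 under R 4.3.3 on log2(value + 1) over 6 libraries in 2 groups, for the 9646 genes with a mean of at least 5, with Benjamini-Hochberg adjustment over all of them and a threshold of 0.05. It was tested on simulated data first, with 200 of 9646 genes changed. There it found 32% of 2-fold and 93% of 4-fold changes, and 7 of its 132 calls were false. In the real data 17.1% of genes passed, a larger share, so these rates may not carry over. A gene that did not pass may still differ. Alternatives were pseudocounts of 0.5 and 5, no filter and a mean of at least 20, other scalings, a replicate block, edgeR 4.0.16 and DESeq2 1.42.0 on the recovered reads, leaving out each library, a threshold of 0.01 and, chosen after seeing the data, thinning and a mean of at least 5 in both groups. edgeR and DESeq2 were alternatives because the deposited values are not raw counts.

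Values per library are given for muscle-type genes, their non-muscle relatives and, per role, up to 4 genes per direction with the smallest p, with up to 3 per direction for the lists. Some further genes, such as Pdlim1, Pdlim5, Srf and Myo10, were given their values after these were seen. For genes with 1 to 3 reads in a group, ratios of read rates carry exact intervals that cover counting error only. Coordinates are from GENCODE M21 on GRCm38 (mm10), and promoter windows are from RefSeq on GRCm38.p6. Whether values came from 1 clone, animal or pool per library is not stated in the labels. The counts include 1 gene whose own values are not reported here, and 1 of the gene lists is likewise not reported here.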

Additional observations from a re-analysis of the deposited data

How the results depend on the processing

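Of the 31 contractile genes past the test 23 passed in all alternatives that could be fitted, and over 48 of the 49 tested genes and these settings 832 results kept their direction and side of the threshold, 32 fell short, 25 came past it and 17 turned direction. With 1 library left out, 1121 to 1728 of all genes and 24 to 31 of the contractile genes passed, against 1647 and 31, and 0 to 2 of the latter were higher in Ly6C+. At an adjusted p under 0.01, 959 genes passed, of which 23 were contractile genes and 0 of these were higher in Ly6C+. DESeq2 called 2 higher (Myl12b and Pdlim1). The muscle actin share differed by 3.44 points with Acta2 and Actg2 only, against 3.83 with Acta1. None of the 31 turned direction. Tpm4 gave -0.31 in edgeR, -0.32 in DESeq2 and -0.91 to 1.38 with 1 library left out. Cald1 gave -0.07 under scaling to library totals, -0.23 in edgeR, -0.28 in DESeq2 and -0.39 to 0.99 with 1 library left out. With 1 library left out the log2 fold changes ran from -0.27 to 0.12 for Tpm3, from -0.91 to 0.23 for Pdlim5, from -0.09 to 0.05 for Mrtfa and from -0.32 to 1.27 for Myo5a. The cause was not tested.

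Libraries of the 2 groups share replicate numbers. Deviations of same-numbered libraries correlated at 0.129, 0.0518 and 0.167, not all over 0.1, so they were taken to share only a number, although each library correlated best with its own number. With the replicate block 2088 genes and 37 contractile genes passed, 3 of the latter higher in Ly6C+, and likewise 3 in edgeR with the block. The genes that came past the test with the block were Flnc (adjusted p = 0.0105), Srf (0.0226), Pdlim1 (0.0231), Myo9b (0.0259), Myo1c (0.0358) and Csrp2 (0.0392). Actg2, Acta1 and Myh11 in Ly6C+ libraries rest on 21, 3 and 1 reads, so the depth limits their folds.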

Other observations

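Among all 6704 genes with a mean of at least 20, the highest Ly6C- value was over 10 times the lowest for 42 (0.626%), and Tpm4 was the only contractile gene among them. Ly6C- replicate 1 was the lowest library for 22 of the 42, replicate 2 for 5 and replicate 3 for 15. In Ly6C+ libraries the same held for 11 genes (0.164%).

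Desmin, an intermediate filament protein of muscle cells, and some pericyte genes lay on the same side as the contractile genes, and others did not. Des was 16.8-fold higher in Ly6C-, or 9.26-fold without Ly6C- replicate 1. Cspg4, the NG2 proteoglycan of pericytes, was 13.7-fold higher and Mcam 10.6-fold, the latter 20.1-fold without Ly6C+ replicate 2. The fold of Mcam rests on 5 reads in Ly6C+, and it reached the filter only through Ly6C-. Kcnj8, a potassium channel gene of pericytes, was 3.92-fold higher in Ly6C+ (limma adjusted p = 0.000367), and Abcc9 was 2.60-fold higher there without passing (0.1002), or 1.69-fold without Ly6C+ replicate 3.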
